A study of Zea mays with 2 samples.

Results

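The regions described here are strong methylation peaks of maize endosperm that lay away from every methylation peak of the embryo. They were chosen from the 114577 endosperm peaks on chromosomes 1 to 10 by a score of at least 100 and by having no embryo peak overlapping or within 1000 bp. The rule gave 747 isolated peaks out of 21326 strong endosperm peaks. The other strong peaks overlapped an embryo peak by at least 1 bp (20010 peaks, the comparison set) or lay beside one at 1000 bp or less (569 peaks). The data are 1 MeDIP-seq library of embryo and 1 of endosperm, both from self-pollinated ears of the maize inbred B73 taken 14 days after pollination, and both pulled down with a Diagenode antibody against 5-methylcytidine. Each library had its own list of peaks called by MACS, and the embryo list held 351748 peaks on the same chromosomes.

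The endosperm is the nutritive tissue of the maize kernel, and it arises from its own fertilization event beside the embryo. Plant genomes carry methylated cytosine in CG, CHG and CHH contexts, most densely on transposable elements, and DNA glycosylases of the DEMETER type remove part of it from the maternal genome of the endosperm. The endosperm is known in several plants as the less methylated tissue of the seed. In MeDIP-seq, sheared DNA bound by the antibody is sequenced, so a peak marks a stretch where reads pile up and does not show the state of single cytosines.

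The score is −10 times the log10 of the MACS p-value, and it measures how far a peak stands above its surroundings within its own library. Scores of the 2 libraries were not set against each other. Neither list goes below a score of 50, so the absence of an embryo peak means only that no embryo peak reached that limit. The deposited lists hold no read numbers, and the depth at single peaks was not used here. Since there is 1 library per tissue and peaks of one library are not replicates, no test was made. Medians carry 95% order-statistic intervals and shares 95% Wilson intervals, and both cover counting error only. Score and distance to embryo peaks chose the regions, so their values below are descriptions.

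At the score limit, the weakest isolated peaks lay on chromosome 1 from 88077868 to 88078101 (score 100.02), on chromosome 7 from 57456449 to 57456762 (100.09) and on chromosome 10 from 20958995 to 20959100 (100.13). Just below it were 3 isolated peaks with a score of 99.96, among them one on chromosome 1 from 136092602 to 136093002. The limit fell in a continuous range, with 219 isolated peaks in the 5 score units below it and 168 in the 5 above. At the distance limit, the closest gap kept was 1008 bp on chromosome 3 from 87030744 to 87031653, and the widest left out was 997 bp on chromosome 1 from 81531340 to 81531756. Here too the numbers were alike on both sides, with 35 strong peaks in the last 100 bp below the limit and 33 in the first 100 bp above.

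Isolated peaks were a small part of the strong endosperm peaks, 3.50% (95% interval 3.26 to 3.76). The share became smaller with the score. Of all endosperm peaks with a score of 50 to under 60, 22.5% lay more than 1000 bp from embryo peaks, and of those with 80 to under 100, 9.28%. Above the limit the share was 5.26% at 100 to under 120 (422 peaks), 3.50% at 120 to under 150 (199 peaks), 2.21% at 150 to under 200 (82 peaks) and 1.13% at 200 and over (44 peaks). The isolated peaks accordingly sat low in the range of strong scores, with a median of 115.9 (113.8 to 118.1) and a highest value of 573.7. Overlapping peaks had a median of 132.3 (131.6 to 133.2) and reached 3100.

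**Figure D1:**
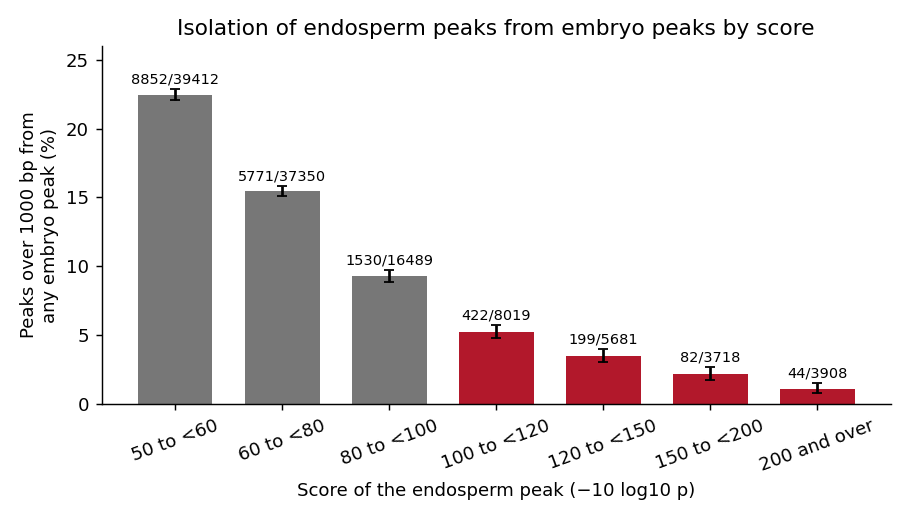
Share of endosperm peaks on chromosomes 1 to 10 that lay more than 1000 bp from any embryo peak (y axis, percent) by score class (x axis); bars in red are the classes from which the 747 regions come, error bars are 95% Wilson intervals and the fractions give the peaks. The share is 22.5% in the lowest class and 1.13% in the highest.

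The isolated peaks lay a median of 2912 bp (2665 to 3183) from the nearest embryo peak, with the middle part of the distribution between 1746 and 5680 bp. Of the 747, 526 were more than 2000 bp away, 223 more than 5000 bp, 51 more than 10000 bp and 9 more than 20000 bp. On the farther side the next embryo peak was a median of 8760 bp away. The nearer embryo peak was on the left for 352 peaks, so neither side was favoured much. The 16153 weaker isolated endosperm peaks, with scores under 100, had almost the same median gap, 2904 bp (2856 to 2950). Among the isolated peaks, gap and score had a Spearman's rho of 0.07, a correlation across peaks of one library and not across replicates. Both measures were cut off by the rule, so nothing was read from it.

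**Figure D2:**
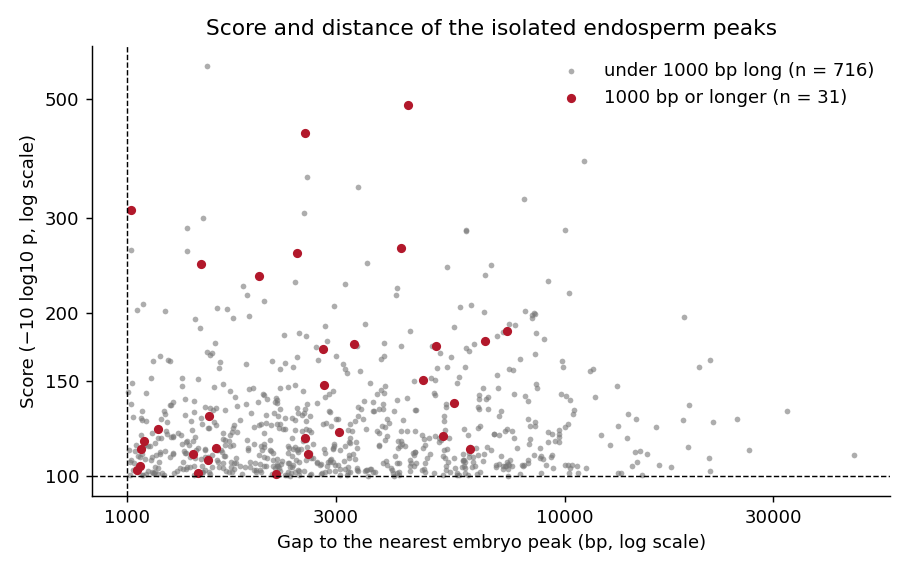
Each point is 1 of the 747 isolated endosperm peaks, placed by its gap to the nearest embryo peak (x axis, bp, log scale) and its score (y axis, log scale); red points are the 31 peaks of 1000 bp or longer and dashed lines are the limits of the rule. Most points sit near the score limit at every distance, and the 9 peaks scoring 300 or more lie at gaps of 1021 to 11093 bp.

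The regions fell into 717 separate stretches without embryo peaks. These stretches had a median length of 12631 bp (11728 to 13458) and ran from 2643 to 101130 bp. The gaps between neighbouring embryo peaks over 2000 bp long had a median of 6006 bp, and the rule itself asks for a stretch of more than 2000 bp. A longer gap also has more room to hold an isolated peak. Stretches picked for holding one are therefore biased to length, and the medians cannot be read against each other. In 520 of 717 stretches (72.5%, 69.1 to 75.7) no other endosperm peak of any score lay wholly inside. Endosperm peaks that reached into a stretch across a flanking embryo peak were not counted. Some of the 520 therefore had another endosperm peak partly inside, so the share of solitary peaks is lower. By the same count, a further 141 held 2 endosperm peaks and 56 held 3 or more, and 32 stretches held 2 or more strong peaks. The fullest stretches held 5 endosperm peaks each. One lay on chromosome 3 from 81136726 to 81174963, where its peaks were spread over 31571 bp, and the other on chromosome 6 from 115435482 to 115450023, where they were packed into 3175 bp. In each of them a single peak was strong, with scores of 109.6 and 139.7.

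The embryo peaks next to the regions were close to embryo peaks at large in score and slightly shorter. The nearest embryo peak had a median score of 88.2 (82.6 to 93.8), against 87.8 for all embryo peaks, and a median length of 257 bp (244 to 267) against 272 bp (272 to 273). It overlapped an endosperm peak of its own in 194 of 747 cases (25.97%, 22.95 to 29.23), against 23.7% of all embryo peaks. The 747 regions had 721 distinct nearest embryo peaks, of which 42.4% scored 100 or more, against 41.4% of all embryo peaks. The nearest other endosperm peak of any score overlapped an embryo peak for 61.9% of the regions (58.3 to 65.3), against 77.8% (77.2 to 78.3) of the comparison set. It was itself more than 1000 bp from embryo peaks for 29.3% (26.2 to 32.7) against 10.3% (9.88 to 10.7). A neighbour close to an isolated peak lies in the same stretch without embryo peaks by the rule. Where the neighbour lay more than 1000 bp away (629 regions), it overlapped an embryo peak in 72.5% (68.9 to 75.8), against 75.2% (74.5 to 76.0) for the comparison set under the same condition.

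Isolated peaks were shorter than strong peaks that overlapped an embryo peak, with a median of 262 bp (256 to 269) against 334 bp (331 to 336). Length was not named in the rule, but a longer peak is more apt to reach an embryo peak and be sorted as overlapping. Length also rises with the score, and the scores of the sets differed. Within score classes the difference remained, though these classes remove neither the sorting by overlap nor all of the difference in score. In the highest class, which has no upper limit, the median score was 182.2 for isolated and 203.4 for overlapping peaks. The medians were 250 against 281 bp at 100 to under 120, 270 against 326 bp at 120 to under 150, and 330 against 433 bp at 150 and over, with intervals that did not meet in any class. Peaks under 200 bp made up 17.5% of the isolated set and 6.61% of the overlapping set. Length and score were less closely tied in the isolated set, with a Spearman's rho of 0.26 across its peaks against 0.47 in the overlapping set. The scores of the isolated set also spanned a narrower range.

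**Figure D3:**
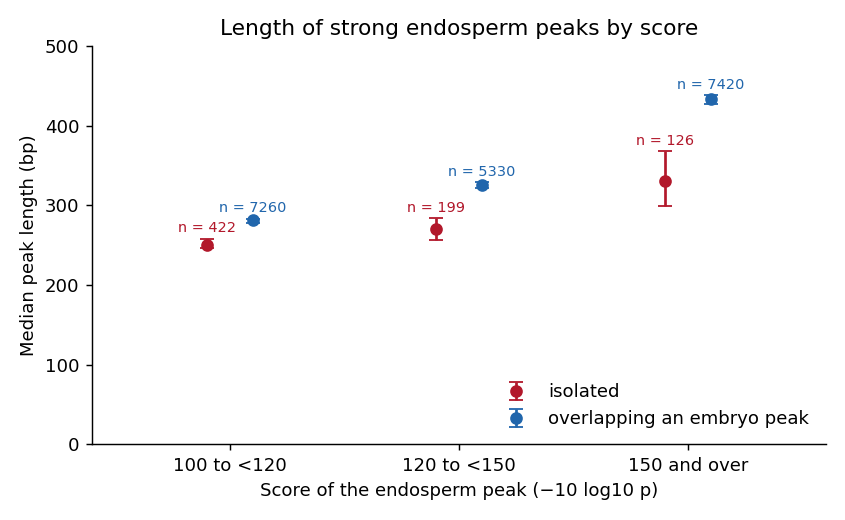
Median length (y axis, bp) of isolated (red) and overlapping (blue) endosperm peaks in 3 score classes (x axis); bars are 95% order-statistic intervals for counting error. Isolated peaks are the shorter ones in each class, 250 against 281 bp in the lowest and 330 against 433 bp in the highest.

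The long end of the distribution did not follow the median. Peaks of at least 1000 bp were 31 of 747 isolated peaks (4.15%, 2.94 to 5.83) and 805 of 20010 overlapping peaks (4.02%, 3.76 to 4.30), so the shares could not be told apart at these numbers. Unlike the medians, these shares were not compared within score classes, and the isolated set had the lower scores. These 31 regions held 21.3% of the 257115 bp that the isolated peaks covered together. They were found on every chromosome but chromosome 2, with 6 on chromosome 7. Their median score was 129.0 (112.6 to 175.7), against 115.4 (113.4 to 117.7) for the shorter ones.

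The longest isolated peak covered 7296 bp on chromosome 4 from 225157418 to 225164713 and had the second highest score of the set, 486.9. It was 4388 bp from the closest embryo peak, which at 4622 bp was the longest of the nearest embryo peaks of all regions, scored 399.4 and overlapped an endosperm peak. The next in length covered 4526 bp on chromosome 7 from 90713951 to 90718476, with a score of 234.7 and a gap of 2006 bp. The rest of the 5 longest had 2339 bp on chromosome 1 from 156836525 to 156838863, 2323 bp on chromosome 9 from 72788835 to 72791157, and 2276 bp on chromosome 6 from 160764579 to 160766854. Great length did not require a high score: the peak on chromosome 1 scored 115.9 and that on chromosome 6 scored 109.8. In all, 7 regions reached 2000 bp. Among the 569 strong peaks beside an embryo peak, 7.21% (5.36 to 9.63) covered at least 1000 bp. That interval lay above the one of the overlapping set, but it met the one of the isolated set, 2.94 to 5.83. The median length of the peaks beside an embryo peak, 289 bp (283 to 300), lay between those of the other sets.

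Scores of 300 or more were found in 9 isolated peaks (1.20%), against 8.14% of overlapping peaks. The highest, 573.7, belonged to a short peak of 431 bp on chromosome 8 from 146461657 to 146462087. Its nearest embryo peak was 1525 bp away and scored 163.1, and on its other side no embryo peak was listed for 21993 bp. The peak on chromosome 5 from 21501906 to 21503458 scored 431.9 over 1553 bp. It shared its stretch with another endosperm peak only 18 bp away. On chromosome 6 from 160757570 to 160758354 a peak of 785 bp scored 383.2 at a distance of 11093 bp from the embryo peaks, the widest gap among the 5 highest. The fifth, on chromosome 5 from 190880589 to 190880818, reached 357.6 with only 230 bp. The strongest regions therefore included both short and long peaks, and their gaps ran from 1525 to 11093 bp.

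The region farthest from the embryo peaks lay on chromosome 3 from 140418379 to 140418609. It was 231 bp long, scored 109.1 and stood alone in a stretch of 101130 bp without embryo peaks, 45905 bp from the closest one. The next endosperm peak was 45979 bp away. On chromosome 3 from 30040160 to 30040406 a peak of 247 bp scored 131.9 and was 32219 bp from embryo peaks. The remaining ones were on chromosome 9 from 97943837 to 97944061 (gap 26352 bp), chromosome 2 from 99531203 to 99531425 (24724 bp) and chromosome 3 from 93683928 to 93684205 (21840 bp). These 5 peaks were of ordinary length, 223 to 278 bp, and their scores ran from 109.1 to 131.9. Their surroundings were not empty of embryo peaks, with 20 to 35 within 100 kb.

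Around the regions, embryo peaks were slightly thinner than around overlapping peaks. Within 100 kb on either side of the peak centre there was a median of 34 embryo peaks (33 to 34), against 37 (36 to 37) for the comparison set. That count includes the distance the rule used, and an overlapping peak has an embryo peak in it by definition. From 10 to 100 kb, outside that distance, the medians were 31 (30 to 32) and 32 (32 to 32), so the difference was smaller there. By density, there were 0.172 embryo peak centres per kb at 5 to 10 kb (0.163 to 0.181) and 0.173 at 10 to 20 kb (0.166 to 0.179). The comparison set had 0.193 and 0.189 there, and the chromosomes as a whole 0.171. From 5 to 20 kb the isolated peaks thus had about the chromosome average of embryo peaks around them, and the overlapping peaks somewhat more.

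**Figure D4:**
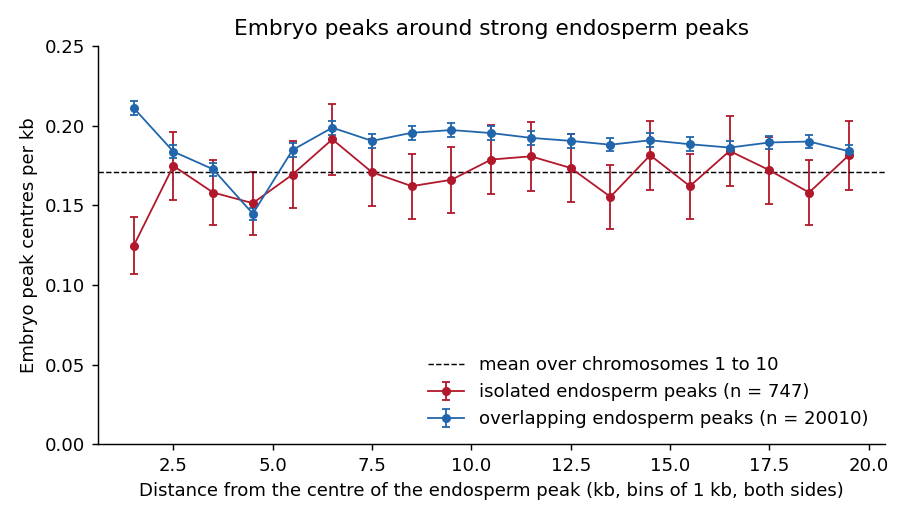
Embryo peak centres per kb (y axis) by distance from the centre of isolated (red) and overlapping (blue) strong endosperm peaks (x axis, bins of 1 kb from 1 to 20 kb, both sides together); bars are 95% counting intervals and the dashed line is the mean of chromosomes 1 to 10. Beyond 5 kb the red points scatter around the mean of 0.171 and all blue points lie above it.

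The number of other endosperm peaks within 100 kb was nearly the same for both sets, a median of 11 (11 to 12) around isolated peaks and 12 around overlapping ones, against 11 for all endosperm peaks. For every 100 embryo peaks in these windows there was a median of 33.3 other endosperm peaks in either set. Endosperm peaks outnumbered embryo peaks within 100 kb of 1 isolated peak (0.134%) and of 87 overlapping peaks (0.435%). Close by, fewer isolated than overlapping peaks had an endosperm neighbour. Another endosperm peak lay within 500 bp of 84 of them (11.2%, 9.18 to 13.7), against 26.2% (25.6 to 26.8) of overlapping peaks and 17.2% of all endosperm peaks. Among the weaker isolated peaks the share was 4.10%, and among the strong peaks beside an embryo peak 39.9% (35.95 to 43.97). The rule bears on these shares. It allows no embryo peak within 1000 bp of an isolated peak, so a neighbour within 500 bp can hardly overlap one. The lower share is therefore not read as a trait of the regions. No other strong endosperm peak was found within 100 kb of 127 isolated peaks (17.0%, 14.5 to 19.9), against 12.9% (12.5 to 13.4) of overlapping peaks. All endosperm peaks, at 16.6%, were close to the isolated ones in this, and the weaker isolated peaks had 19.4%.

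Most regions were single. Linking isolated peaks at gaps of at most 50 kb left 641 on their own, 44 groups of 2 and 6 groups of 3. In all, 106 of 747 (14.2%, 11.9 to 16.9) had another isolated peak within 50 kb and 56 (7.50%) within 10 kb. The comparison set is so much denser that its share within 50 kb, 68.2%, cannot be read against this. Scaled by the mean spacing of each set, 2756 kb for isolated and 103 kb for overlapping peaks, 25.97% (22.95 to 29.23) of the isolated peaks had a neighbour within 10% of that spacing, against 34.4% (33.7 to 35.1). The median gap to the next peak of the same set was 31.7% of the mean spacing for isolated and 23.2% for overlapping peaks. Within 1% of the spacing the shares were 11.5% (9.42 to 14.0) and 13.7% (13.2 to 14.2), and these intervals overlapped. At 10% of the spacing and by the median gap, isolated peaks were thus the less clustered set, and at 1% the sets could not be told apart. These are unlike distances in bp. The 1% stands for 27557 bp in the isolated and 1029 bp in the overlapping set, and the 10% for 275571 and 10287 bp. Within 500 bp, 4.02% (2.83 to 5.68) of isolated and 10.4% (9.95 to 10.8) of overlapping peaks had another of their set. Those shares are not scaled to the numbers of peaks, so no order of clustering at short range was drawn.

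The 6 groups of 3 differed in extent, and the tightest looked like runs of peaks at one place. On chromosome 4 from 92336897 to 92337573, 3 isolated peaks of 207, 161 and 261 bp followed each other at gaps of 34 and 14 bp, with scores of 104.55, 117.25 and 200.2. On chromosome 3 from 13731805 to 13732911, 3 peaks with scores of 101.0, 121.3 and 222.4 spanned 1107 bp. Another group, on chromosome 5 from 161044238 to 161047067, had peaks of 679, 460 and 447 bp with scores of 229.3, 198.7 and 181.8. All of its peaks were at least 6994 bp from an embryo peak. On chromosome 6 from 160757570 to 160766854, a peak among the 5 highest and one among the 5 longest stood in one group, with a peak of 684 bp and a score of 159.3 between them. The last groups, both on chromosome 1, spanned 43719 bp from 184506557 to 184550275 and 48463 bp from 203882924 to 203931386. The second of these was made of peaks of 967, 993 and 1064 bp, so that all its members were long for the set. Of the 50 groups, 18 spanned 5000 bp or less. When endosperm peaks within 500 bp were joined first, 722 isolated peaks remained and the share with another one within 50 kb was 10.4% (8.37 to 12.8).

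Every chromosome carried isolated peaks in similar numbers for its size, from 0.321 per Mb on chromosome 5 (70 peaks) to 0.467 on chromosome 6 (79 peaks). Chromosome 6 was also the densest for overlapping peaks, with 12.3 per Mb against 9.03 to 9.89 on the others. As a share of the strong peaks of the chromosome, isolated peaks ran from 3.06% on chromosome 5 (2.43 to 3.85) to 4.08% on chromosome 4 (3.38 to 4.92), and these intervals overlapped. The interval of chromosome 6 from 10 to 13 Mb, crowded with endosperm peaks, held 4 isolated peaks (0.536%) and 398 overlapping ones (1.99%). In windows of 1 Mb, 595 of 2064 held an isolated peak and 21 held 3 or more. The fullest window, chromosome 3 from 214 to 215 Mb, had 5 isolated and 6 overlapping peaks among 47 endosperm and 148 embryo peaks.

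Along the chromosomes, 36.1% (32.8 to 39.7) of isolated peaks lay in the central part, from 33.3% to 66.7% of the length, against 29.9% (29.3 to 30.6) of overlapping peaks. All endosperm peaks had 34.3% there and the weaker isolated ones 37.6%. This share moved with the score. Among isolated peaks it was 40.3% (35.7 to 45.0) at scores of 100 to under 120, 33.2% at 120 to under 150 and 27.0% (20 to 35.3) at 150 and over. Overlapping peaks of those classes had 32.0%, 31.2% and 27.0%, so the sets differed in the lowest class and not visibly in the highest. The first 10% of the chromosomes held 10.6% of isolated (8.57 to 12.99) and 13.5% of overlapping peaks (13.1 to 14.0), and the last 10% held 10.7% and 9.87%. The lengths of the chromosomes were taken as the end of their last peak.

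**Figure D5:**
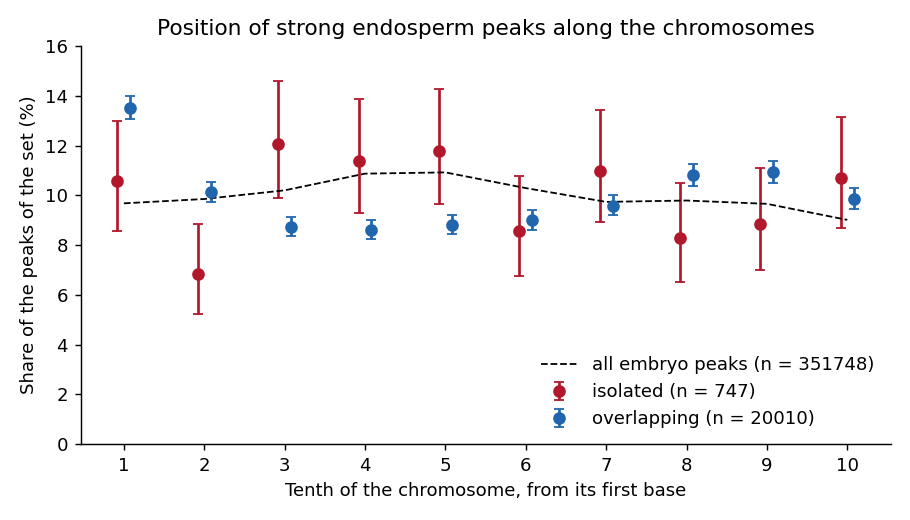
Share of isolated (red) and overlapping (blue) strong endosperm peaks in each 10% of the chromosome length (y axis, percent; x axis, 10 equal parts counted from the first base, chromosomes 1 to 10 together); bars are 95% Wilson intervals and the dashed line gives all embryo peaks. The first part holds 10.6% of the red and 13.5% of the blue set.

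Gene regions could be given for the start of chromosome 1, where the study's annotation of endosperm peaks was used up to position 62527212. Of 15 isolated peaks there, 8 were paired with a gene region, by 14 gene models in all. That is 53.3% (30.1 to 75.2), against 30.5% (27.0 to 34.3) of the 610 overlapping strong peaks and 26.4% of all 3202 endosperm peaks of the same part, and with 15 peaks the interval is too wide to set the isolated share apart from that of the overlapping peaks. RefSeq has a symbol for 2 of these, neither of which describes a function. The genes are named here for their place and not for any change in their expression, which was not measured in these files. Promoters, introns, untranslated ends and the transcriptional termination region (TTR) all occurred among them.

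The peak from 8187556 to 8189228 on chromosome 1 covered 1673 bp, scored 177.7 and fell in the coding sequence and TTR of GRMZM2G587606 and in the 3′ untranslated region of GRMZM2G547369. The study's protein annotation of GRMZM2G587606 is subunit VIII of the cytochrome b6/f complex, a small protein of the photosynthetic electron transport chain that is encoded in the chloroplast genome. Its closest embryo peak was 6572 bp away and scored 233.8, and 4 endosperm peaks shared the stretch. On the chloroplast sequence itself the endosperm list had 4 strong peaks, 3 of them isolated. Whether reads from organelle DNA had a part in this region was not tested.

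The strongest of the gene-linked regions, from 19646999 to 19647452 on chromosome 1, scored 184.2 over 454 bp and was 8588 bp from the closest embryo peak. It was placed in the promoter, coding sequence and TTR of GRMZM2G581348, in the 5′ untranslated region of GRMZM2G357926 and in the 3′ untranslated region of GRMZM2G542562. The peak from 6567657 to 6567940 scored 168.5 at a gap of 5201 bp and lay in the TTR of GRMZM2G137367 and GRMZM2G137374 and in the 3′ untranslated region of GRMZM2G129196. The study's annotation gives GRMZM2G137367 an endodeoxyribonuclease activity, the cutting of DNA within a strand. The peak from 2232108 to 2232301 scored 134.25 and was assigned to the 5′ untranslated region of GRMZM2G315401 and to the promoter and exon of GRMZM2G548835, 5368 bp from an embryo peak.

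Weaker regions met the promoter of GRMZM2G097283, from 19555502 to 19555732 with a score of 105.55, and an intron of GRMZM2G411079, from 21069549 to 21069891 with 114.2. Their closest embryo peaks were 4137 and 3766 bp away. GRMZM2G097283 is annotated by the study as an octaprenyltransferase of naphthoate, an enzyme that attaches a prenyl tail in quinone synthesis. The last of the 8 peaks were in promoters of clone-based gene models, from 10122287 to 10122635 with a score of 114.8 and from 52926417 to 52926550 with 100.7. Within 100 kb of these 8 peaks there were 20 to 38 embryo peaks and 7 to 14 other endosperm peaks.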

How the data were processed

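MeDIP-seq reads of 1 embryo and 1 endosperm library were cleaned with fastx, mapped with Bowtie2 2.0.5 under default parameters and searched for peaks with MACS at a p-value of at most 1e-5, separately per library. The authors deposited 1 list per library with position, name and score of each peak, the score being −10 times the log10 of the p-value. A control track and the genome build are not given in the sources used here, so no sequence was read.

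From the lists, gaps between peaks, overlaps of at least 1 bp, peak numbers around peak centres and lengths were computed on chromosomes 1 to 10, with positions counted from 1. The gap is the number of bases between peaks. The tools were Python 3.11.15, numpy 2.4.6, pandas 2.3.3, scipy 1.17.1, statsmodels 0.14.6 and matplotlib 3.10.9. The code was checked on simulated peaks and against bedtools 2.31.1, and all 8 checks gave the known number.

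The regions, their rule and the alternatives were chosen with earlier results of these data known. Regions named are the 5 highest in score, the 5 longest, the 5 farthest from embryo peaks, the groups with most isolated peaks (6, tied), those at the limits and those with a gene region in the part of the study's annotation used. The fullest stretches and the fullest window were picked after their values were seen. Alternatives changed the distance, the score minimum, the embryo peaks used, joining, windows and score classes. With 1 library per tissue no group test was made.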

Additional observations from a re-analysis of the deposited data

Results flagged for a closer look

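The rule was applied to chromosomes 1 to 10, and the deposited lists also hold peaks on unplaced sequences. There, 6 of 523 strong endosperm peaks were isolated from embryo peaks by the same rule (1.15%, 0.527 to 2.48), against 3.50% on chromosomes 1 to 10, while 497 overlapped an embryo peak. These 6 had a median length of 354.5 bp and a highest score of 180.3, and the longest covered 1713 bp. They are listed because they lie outside the sequences used in the comparisons.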

How the results depend on the processing

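The number of isolated peaks follows the rule. It was 747, against 1316 with any gap allowed, 223 at 5000 bp, 126 and 44 at minimum scores of 150 and 200, and 2655 when only embryo peaks of at least 100 counted. With those embryo peaks the median gap was 5704 bp, the median length 272 bp, the embryo peaks within 100 kb 36 and the share with an isolated neighbour within 50 kb 20.3%. With any gap allowed, the medians were 1341.5 bp for the gap, 276 bp for length and 35 embryo peaks. At 2000 bp the gap was 4193.5 bp. At 5000 bp the gap was 7425 bp, length 251 bp, score 118.9, embryo peaks 31, other endosperm peaks 10 and the central share 32.7%. At a minimum score of 150 the gap was 3518 bp, length 330 bp, score 182.2, embryo peaks 32 and the neighbour share 10.3%, and the central share turned, by a margin far inside counting error, to 26.98% against 26.99% for overlapping peaks. At 200, length was 333.5 bp, score 239.7, embryo peaks 30, other endosperm peaks 10, the neighbour share 4.55% and the central share 31.8% against 25.5%. Joining peaks within 500 bp gave a neighbour share of 10.4% and 10 other endosperm peaks. Neighbour shares were 7.50% within 10 kb, 22.6% within 200 kb and 25.97% within 10% of the mean spacing. Windows of 20 and 500 kb held 6 and 169 embryo and 2 and 55 other endosperm peaks, against 8 and 172 and 3 and 57 around overlapping peaks. The central 50% of the chromosomes held 53.1%. By score class, from low to high, lengths were 250, 270 and 330 bp, and the highest class had 32 embryo peaks within 100 kb. From 10 to 100 kb the whole set had 31. Isolated peaks were shorter than overlapping ones under every alternative run. Their median number of embryo peaks was also lower throughout, but every alternative still sorted the sets by embryo peaks nearby. That direction is thus largely built in. From 10 to 100 kb the interval of the isolated median, 30 to 32, reached the overlapping median of 32. In the 500 kb window the interval, 168 to 172, reached 172. Without the interval of chromosome 6 from 10 to 13 Mb there were 743 isolated peaks, with a median gap of 2925 bp and a central share of 36.3%, and each value stayed within its counting interval or, for the number, within 1.5 times. The counts from 10 to 100 kb and by mean spacing were chosen after seeing the data. Base composition was not analysed here, and no library could be left out. No paired analysis was possible because each tissue has a single library.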

Other observations

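On the organelle sequences, numbers were too small for shares. The chloroplast had 3 isolated strong endosperm peaks, 1720 bp long in the median, and the mitochondrion had 2 with a median of 2987 bp and a longest peak of 4960 bp. Overlapping strong peaks were long there too, 1624 bp for the 1 on the chloroplast and a median of 2306 bp for the 3 on the mitochondrion. The study takes the plant chloroplast genome to lack methylation, so the chloroplast peaks are not read as methylation. It says nothing of the kind about the mitochondrion. Since it reports counting nuclear reads only, the mitochondrial peaks are not interpreted here either. On chromosomes 1 to 10 the median isolated peak was 262 bp long.

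The number of embryo peak centres around endosperm peaks did not fall smoothly with distance. Around overlapping strong peaks it was 0.173 per kb at 3 to 4 kb, 0.145 at 4 to 5 kb and 0.185 at 5 to 6 kb. The same dip was present around all endosperm peaks, with 0.176, 0.144 and 0.185. That set includes the overlapping strong peaks, so it is not a separate sighting of the dip. Around the isolated peaks the values were 0.158, 0.151 and 0.169, and with 226 to 253 embryo peaks in each of these bins the dip was not detectable there.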
